A study of Mus musculus with 6 samples.

Results

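Potassium channel subunits were followed over the cell types of the rd10 mouse retina and between eyes injected with saline or with interleukin 27 (IL-27). The members were all gene symbols made of Kcn, a letter and a digit, without Kcnj10, Kcnj2, Kcnj13 and Kcnj16, and 79 of the 32285 annotated genes met this rule. They comprised 77 channel subunits and 2 noncoding genes whose symbols begin the same way, Kcnq1ot1 and Kcnd3os. By family there were 8 Kcna (Kv1), 2 Kcnb (Kv2), 4 Kcnc (Kv3), 3 Kcnd (Kv4) and 5 Kcnq (Kv7) subunits, 8 Kcnh subunits of the ether-a-go-go group, 10 silent modifiers (Kcnf, Kcng, Kcns, Kcnv), 5 Kcne beta subunits, 7 ion-activated subunits (Kcnn, Kcnt, Kcnu), 11 inward rectifiers (Kcnj) and 14 2-pore leak subunits (Kcnk).

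RNA of single nuclei was measured in 6 samples of frozen retina of the strain B6.CXB1-Pde6b-rd10/J, taken at postnatal day 20. All animals carried the rd10 mutation of Pde6b, the rod phosphodiesterase gene, which leads to rod death, and no wild-type or uninjected retina was among the samples. At postnatal day 18, 1 eye received an intravitreal injection of saline (replicates 1, 2 and 6) or of 20 ng recombinant IL-27 (replicates 4, 5 and 10), so that each group had 3 libraries and was sampled 2 days later. The libraries held 8968 to 9965 barcodes and 36678332 to 48260748 unique molecular identifiers (UMIs, counted molecules), the fewest UMIs in IL-27 replicate 10. Each group held 1 library with Xist counts and 2 with Y-linked counts, and 18 to 30 barcodes were shared between any pair of libraries.

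Potassium channels let potassium ions leave or enter the cell and thereby set the resting potential and the shape of electrical responses. Voltage-gated Kv subunits form tetramers that open on depolarization. Silent modifiers do not form channels alone but join Kv2 subunits. Inward rectifiers and 2-pore leak channels carry current near rest, and calcium- or sodium-activated subunits open when these ions rise inside the cell. In photoreceptors channels that contain Kv8.2 (Kcnv2) shape the light response, and loss of KCNV2 function causes a cone and rod dystrophy in people. Muller glia buffer the potassium that neurons release.

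Nuclei were clustered without any gene whose symbol begins with Kcn, and 11 cell types were named from marker genes. After removal of doublets 52186 of 56634 barcodes were retained, and UMIs were summed per library over 11909 rods, 2513 cones, 7961 bipolar cells (BC), 8145 amacrine cells (AC), 427 horizontal cells (HC), 1730 retinal ganglion cells (RGC), 4388 Muller glia, 243 astrocytes, 985 microglia, 176 endothelial cells and 88 pericytes. Every marker was highest in its own type for rods, cones, BC, HC, microglia and pericytes. Exceptions were Pax6 and Tfap2b for AC, Rbpms for RGC, Aldh1l1 for astrocytes, Kdr for endothelial cells, and Slc1a3, Apoe, Vim and Sox9 for Muller glia, where 5 of 9 markers were highest. Pericytes contributed only 10 to 19 nuclei per library. Levels are given in CPM, the UMIs of a gene per 1000000 UMIs of that cell type in that library, as mean ± SD over the 6 libraries unless stated. They were compared between cell types within a gene and not between genes, since nuclear RNA favours long genes with long introns.

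For 3 subunits that led the cones, the microglia and the pericytes, the 250 bases before the annotated start are shown with the positions of their genes. In the comparison of cell types below, Kcnj8 was called higher in 1 type, and Kcne2 and Kcnk13 in 3 types each. The subunits were chosen after their values were seen. Kcne2, a beta subunit, lies at chr16:92292389-92298129 on the + strand (GRCm38) and has 2 annotated starts. Kcnk13, a 2-pore leak subunit (THIK-1), lies at chr12:99964499-100062682 on the + strand. Kcnj8, the pore subunit Kir6.1 of an ATP-sensitive channel, lies at chr6:142564837-142571614 on the - strand. The sequences are RefSeq's (GRCm38.p6), read 5′ to 3′ on the strand of the gene, and capitals mark a match to a searched motif.
Kcne2 first start, chr16:92292139-92292388: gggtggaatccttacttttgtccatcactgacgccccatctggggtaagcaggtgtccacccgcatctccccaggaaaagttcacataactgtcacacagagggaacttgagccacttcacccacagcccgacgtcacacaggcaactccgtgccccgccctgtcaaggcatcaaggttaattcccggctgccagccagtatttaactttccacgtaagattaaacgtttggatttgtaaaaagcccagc
Kcne2 second start, chr16:92295366-92295615: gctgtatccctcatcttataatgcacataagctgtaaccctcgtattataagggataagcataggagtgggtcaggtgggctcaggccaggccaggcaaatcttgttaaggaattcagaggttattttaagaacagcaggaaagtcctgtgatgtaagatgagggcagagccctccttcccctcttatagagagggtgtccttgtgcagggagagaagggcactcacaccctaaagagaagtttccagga
Kcnk13, chr12:99964249-99964498: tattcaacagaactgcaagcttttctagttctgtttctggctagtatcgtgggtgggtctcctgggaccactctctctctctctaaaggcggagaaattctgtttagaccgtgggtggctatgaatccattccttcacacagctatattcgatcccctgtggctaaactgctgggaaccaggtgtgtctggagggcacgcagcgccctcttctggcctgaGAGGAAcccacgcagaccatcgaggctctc
Kcnj8, chr6:142571615-142571864: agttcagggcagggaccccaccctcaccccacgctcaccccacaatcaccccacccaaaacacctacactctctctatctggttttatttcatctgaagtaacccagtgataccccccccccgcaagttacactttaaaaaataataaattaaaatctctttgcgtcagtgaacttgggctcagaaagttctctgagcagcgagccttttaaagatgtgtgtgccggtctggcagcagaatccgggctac
Both strands were searched for TAATCC, the core bound by the photoreceptor factor CRX, and for GAGGAA, the core bound by the myeloid factor PU.1. TAATCC was present in 6.25% of all 32851 windows of this length and in 1 of the 68 windows of members. GAGGAA was present in 23.3% of all windows and in 20 of the 68. The window of Kcnk13 held 1 GAGGAA, 30 bases before the start, and the other windows shown held neither motif. A match is a string of letters and no evidence of binding. Of the 79 members, 55 had a window.

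All 79 members had at least 1 UMI in the named types. For 19 members the sum over all types and libraries was below 100 UMIs, for 14 it was 10000 or more, and the other 46 lay between. Among the members with the most UMIs were Kcnb2, Kcnc1, Kcnc2, Kcnd2, Kcnd3, Kcnh1, Kcnh5, Kcnh7, Kcnj3, Kcnj6, Kcnn2, Kcnq3 and the noncoding Kcnq1ot1. The summed level of the 77 subunits was highest in RGC at 8683 ± 609 CPM, followed by AC (6163 ± 272 CPM), BC (4513 ± 184 CPM) and HC (3167 ± 202 CPM). It was 1320 ± 47.9 CPM in rods and 1150 ± 81.9 CPM in cones. In Muller glia it was 549 ± 68.7 CPM, in microglia 546 ± 47.5 CPM, in endothelial cells 545 ± 254 CPM, in astrocytes 2002 ± 455 CPM and in pericytes 1668 ± 384 CPM. The sum is carried by a few long genes, so it describes those genes more than the family.

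Each cell type was then compared with the mean of the other 10 types within libraries (edgeR quasi-likelihood test). A gene was called higher at an adjusted p under 0.05 with a log2 difference of at least 1. The filter on low counts passed 50 of the 79 members, and the other 29 were not tested. Of the 50, 37 were called higher in AC, where 21.0% of all 14803 genes tested were, and 37 in RGC (21.8% of all genes). BC had 25 (17.5%), HC 11 (14.0%), rods 9 (17.8%), cones 9 (15.9%) and astrocytes 8 (14.2%). Muller glia had 4 (19.9%), pericytes 4 (7.31%), microglia 3 (19.5%) and endothelial cells 3 (11.5%). The median log2 difference of the members was 3.02 in RGC, 2.53 in AC and 1.17 in BC, against 0.17, 0.16 and 0.12 for all genes. It was -0.13 in rods and -0.50 in cones (all genes 0.21 and 0.12), -0.25 in HC, -0.58 in Muller glia, -0.94 in astrocytes and -1.28 in microglia. In endothelial cells and pericytes the members' median was -1.80 and -1.85, and that of all genes was itself shifted to -0.36 and -0.65. With library totals in place of TMM scaling the medians of all genes were 0.10 and 0.01 in these types and ran from -0.55 in HC to 0.31 in rods, so a direction in the map is relative to that shift. Some counts moved by more than 1.5 times with the processing. Another measure was the share of nuclei with a UMI after thinning to 1000 UMIs, above the mean of the other types in all 6 libraries. Of the members called, it kept 13 in BC, 5 in HC, 4 in rods, 2 each in astrocytes and pericytes and 1 in endothelial cells. Members not called were left out of it, so it could only lower a count. With no filter the counts were 7 each in Muller glia and microglia. With all retained nuclei summed they were 5 in microglia and 7 in endothelial cells. A passed member had to be counted in some type, so these shares describe the 50 members that passed and not all 79.

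**Figure D1:**
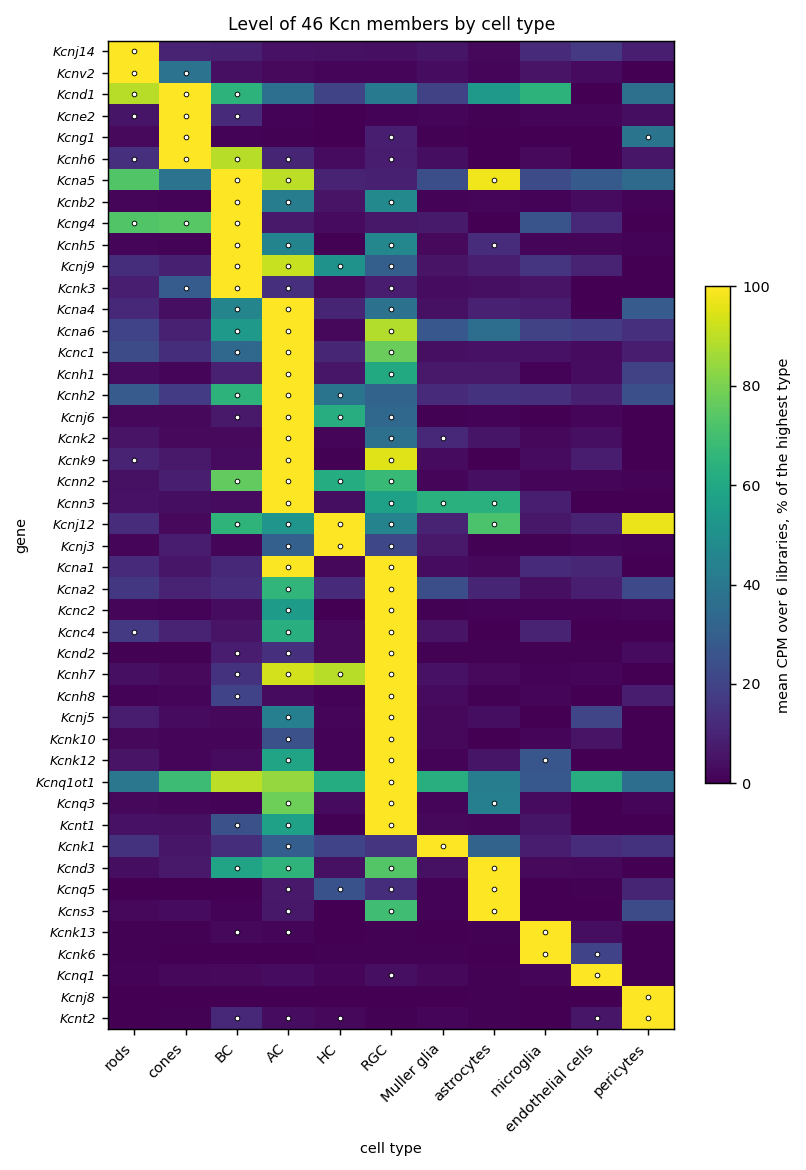
Level of 46 of the 50 tested members (rows) in 11 cell types (columns), as a percent of the member's highest type (colour, mean CPM over 6 libraries), with a white dot where the member was called higher than the mean of the other types. The dots fill most of the AC and RGC columns, with 35 and 34 of these 46. They number 3 each in the Muller, microglial, endothelial and pericyte columns and 8 in the astrocyte column, as in rods.

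Of the 50 members, 3 were called higher in a single type, 12 in 2 types, 21 in 3 types, 10 in 4 types and 4 in 5 types. Of all 14803 genes tested, 30.7% were called higher in no type, 19.4% in 1, 16.7% in 2, 15% in 3, 10.8% in 4 and 5.42% in 5 types. For 37 of the 79 members (46.8%) 1 type had the highest level in all 6 libraries, as for 18.8% of all 27658 genes with a UMI. Among genes that passed the filter these shares were 35 of 50 members and 30.2% of all genes. RGC led 10 of these (Kcna2, Kcnc2, Kcnc4, Kcnd2, Kcnh7, Kcnh8, Kcnj5, Kcnk10, Kcnq3, Kcnt1) and AC led 8 (Kcna6, Kcnc1, Kcnf1, Kcnh1, Kcnj6, Kcnk2, Kcnn2, Kcnn3). BC led 4, rods and astrocytes 3 each, cones, microglia and pericytes 2 each, and HC, Muller glia and endothelial cells 1 each.

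Among the silent modifiers Kcnv2 was highest in rods. Kcnv2 (chr19:27322588-27337179, + strand), the Kv8.2 modifier, was at 92.7 to 114 CPM in rods (median 110 CPM) and at 40.8 ± 10.0 CPM in cones, with a log2 difference of 5.13 (SE 0.12, edgeR adjusted p = 3.89e-53) for rods. Rods lay above cones in all 6 libraries.

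Free RNA of rods can be caught with other nuclei, and 14 rod genes were taken as a guide to it. In cones their level was 2.55 to 59.6% of that in rods, with a median of 19.7%. The genes differed widely in cones, with Sag at 59.6%, Rom1 at 47.3%, Nrl at 8.90% and Nr2e3 at 5.67% of rods. In microglia Sag was at 4.71% and Nrl at 12.1%. The list therefore sets no single level of free rod RNA in cones. The cone level of Kcnv2 (38.2% of rods) fell inside its range, and the part of free rod RNA in it was not tested. In the remaining types the level of Kcnv2 was at most 5.38% of that in rods, in microglia, where the rod genes had a median of 12.6%. These levels were below the medians of the rod genes in the same types, so no expression is read from them, and the part of free rod RNA was not tested. Within BC the level of Kcnv2 was not uniform, with a log2 difference of -1.47 (SE 0.34, adjusted p = 0.000403) for ON minus OFF cone BC. After each nucleus was thinned to 1000 UMIs, with 2423 shallower rods of 11909 left out, 9.95% of rods and 4.06% of cones had a Kcnv2 UMI (12.4% and 9.71% unthinned).

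The other silent modifiers that passed the filter were Kcng1, Kcng4 and Kcns3. Kcng1 was at 29.1 ± 7.37 CPM in cones and at 0.72 ± 0.56 CPM in rods. Kcng4 was called higher in BC, cones and rods, with 17.4 ± 2.72 CPM in BC. Of the 10 modifiers, 6 (Kcnf1, Kcng2, Kcng3, Kcns1, Kcns2, Kcnv1) did not pass. Kcnb2, which encodes Kv2.2, was highest in BC, at 1439 to 1696 CPM, above RGC (746 ± 65.5 CPM) and AC (668 CPM), with a log2 difference of 5.28 (SE 0.06, adjusted p = 1.15e-79) for BC.

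**Figure D2:**
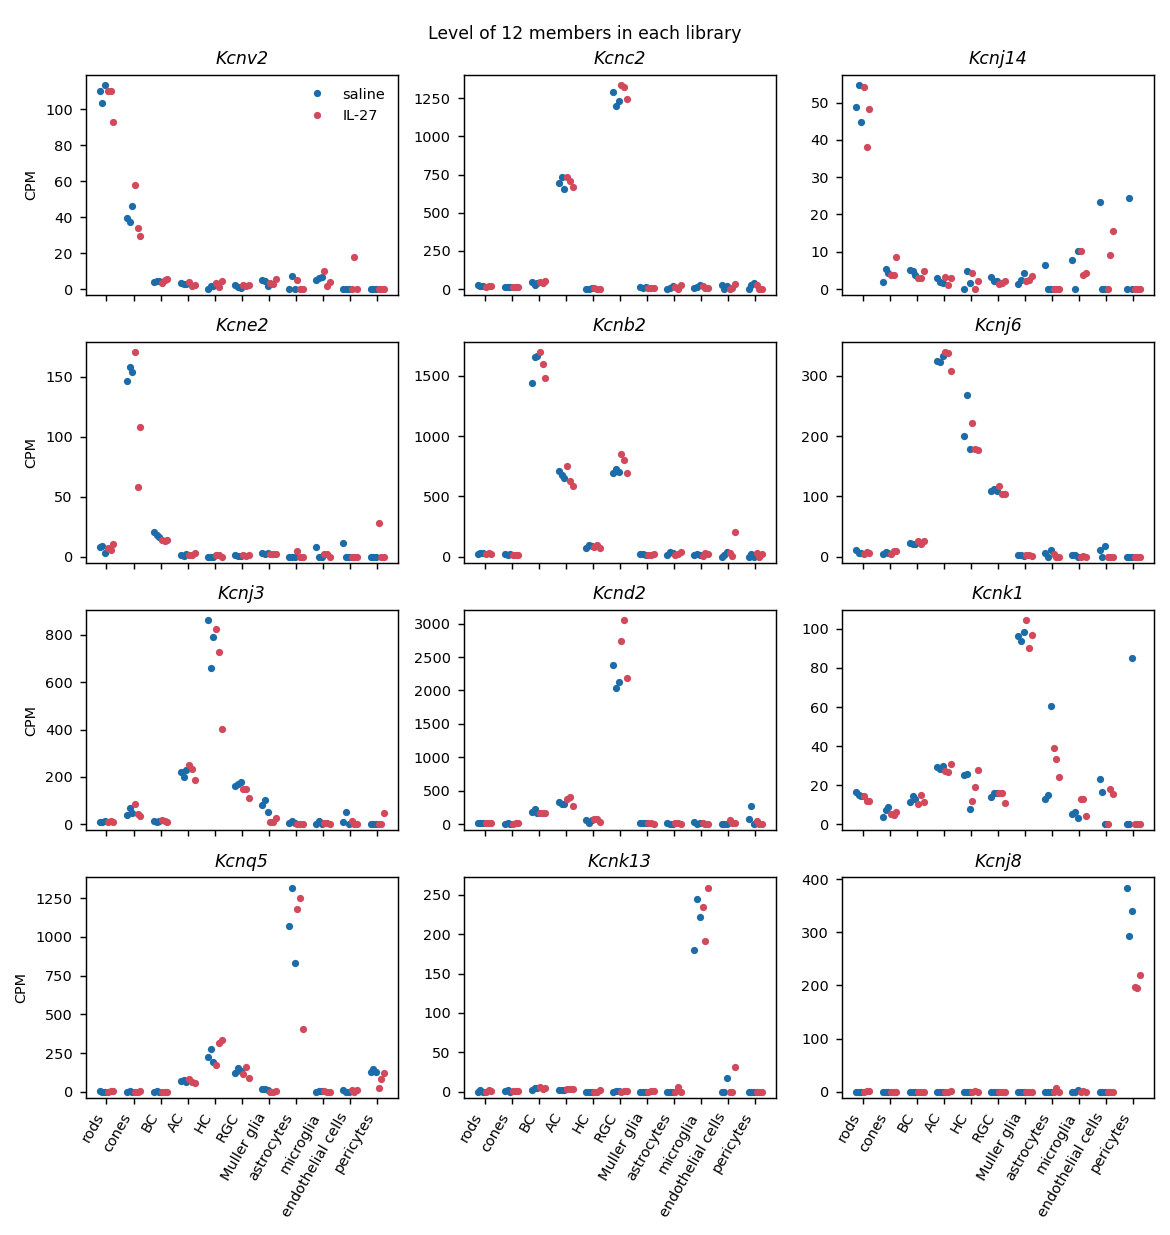
CPM of 12 members (panels) in each of 11 cell types, 1 point per library, saline and IL-27 libraries in different colours. Kcnk13 stands at 180 to 259 CPM in microglia and Kcnj8 at 195 to 384 CPM in pericytes, with the other types near 0, while Kcnb2, Kcnd2 and Kcnj3 are present in several neuronal types.

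Kv1, Kv3 and Kv4 subunits underlie fast repolarization and A-type currents of neurons. Of the 8 Kcna genes 5 passed the filter, and all 5 were called higher in AC, 4 in RGC and 3 in BC. Of all genes tested 21.0, 21.8 and 17.5% were called higher in these types, and of the 50 members 37, 37 and 25. No family was tested against these shares. All 4 Kcnc genes passed and were called higher in both AC and RGC. Kcnc2 (Kv3.2) was at 1199 to 1338 CPM in RGC, with 699 ± 32.0 CPM in AC and 41.6 CPM or less elsewhere (log2 difference 6.39, SE 0.07, adjusted p = 5.43e-82). Kcnd2 (Kv4.2; chr6:21215503-21729805, + strand) was at 2044 to 3053 CPM in RGC, 7.25 times the level of AC at 334 ± 49.3 CPM, and the log2 difference for RGC was 6.46 (SE 0.07, adjusted p = 1.36e-81). Among the named types Kcnd3 (Kv4.3) was led by astrocytes at 293 to 462 CPM, followed by RGC at 275 ± 21.5 CPM and AC at 243 CPM. Pericytes had no UMI of it. The OFF cone BC and GABAergic AC subclasses, and an unnamed cluster described below, had higher means than astrocytes.

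The Kv7 subunits carry slow currents that limit repeated firing. All 5 Kcnq genes were called higher in RGC, as were 21.8% of all genes tested and 37 of the 50 members. Kcnq5 (chr1:21398403-21961942, - strand) was highest in astrocytes, at 407 to 1317 CPM with a median of 1127 CPM, and next in HC at 254 ± 65.7 CPM. The lowest astrocyte value was that of IL-27 replicate 10, and the other 5 libraries lay at 834 CPM or above. The log2 difference for astrocytes was 5.90 (SE 0.17, adjusted p = 1.44e-48). Kcnq1 (chr7:143106362-143427042, + strand), known from heart and epithelia, was at 52.7 to 199 CPM in endothelial cells and at 5.26 CPM or less in every other type, and these endothelial values rest on 61 UMIs in all.

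Kcnh subunits form ether-a-go-go and related channels, which open slowly or near rest. Of the 8 genes 6 passed, and 5 each were called higher in BC, AC and RGC. Of all genes tested 17.5, 21.0 and 21.8% were, and of the 50 members 25, 37 and 37. Kcnh5 was at 927 to 1106 CPM in BC, above RGC at 473 ± 44.0 CPM (log2 difference 5.12, SE 0.08, adjusted p = 1.49e-69). Kcnh1 was at 141 to 182 CPM in AC, above RGC at 97.6 ± 10.2 CPM. Kcnh7 was similar in RGC (1325 ± 55.9 CPM), AC (1234 ± 64.2 CPM) and HC (1183 CPM). Kcnh6 was at 65.1 ± 8.47 CPM in cones and 58.2 ± 3.70 CPM in BC, and the order of these types differed between libraries, with cones higher in 4 of 6.

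Of 11 inward rectifiers 7 passed the filter, and 5 each were called higher in AC and RGC. Of all genes tested 21.0 and 21.8% were, and of the 50 members 37 in each. Kcnj3 and Kcnj6 encode Kir3 subunits, which open when Gi-coupled receptors are active. Kcnj3 (chr2:55435970-55598145, + strand) was highest in HC, at 404 to 862 CPM with a median of 757 CPM, above AC at 219 ± 24.1 CPM (log2 difference for HC 5.54, SE 0.16, adjusted p = 1.02e-48). The lowest HC value was again that of IL-27 replicate 10. Kcnj6 was at 309 to 339 CPM in AC and at 204 ± 35.8 CPM in HC. Kcnj14 (Kir2.4; chr7:45816460-45824782, - strand) was highest in rods at 38.0 to 54.8 CPM, with 4.56 ± 2.25 CPM in cones, and was called higher in rods and in no other type (log2 difference 3.77, SE 0.15, adjusted p = 1.32e-38). In cones Kcnj14 was at 9.47% of the rod level, where the rod genes ran from 2.55 to 59.6% with a median of 19.7%. The part of free rod RNA in it was not tested.

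Kcnj8 was at 195 to 384 CPM in pericytes, with a median of 256 CPM, and at 1.11 CPM or less in every other type. It was counted 54 times in 88 pericytes and 37 times in all other named nuclei together. After thinning, 18.2% of pericytes (95% exact binomial interval 10.8 to 27.8%, counting error only) and 0 of 176 endothelial cells had a UMI, where the exact interval allows up to 2.07% of nuclei with a UMI at this depth and sets no limit on nuclei that express the gene. The fitted log2 difference was 9.26 (SE 0.48, adjusted p = 9.11e-28). Kcnt2, a sodium-activated subunit (chr1:140246158-140612067, + strand), was also highest in pericytes, at 607 to 1065 CPM, above BC at 88.7 ± 4.73 CPM. Of the ion-activated subunits Kcnn2 (SK2) was at 591 ± 50.1 CPM in AC, 450 ± 19.2 CPM in BC and 398 CPM in RGC.

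2-pore leak subunits were divided between neurons, Muller glia and microglia. Of 14 genes 8 passed, and 7 of them were called higher in AC, as were 21.0% of all genes tested and 37 of the 50 members. Kcnk13 was at 180 to 259 CPM in microglia, with a median of 228 CPM, and next in endothelial cells at 8.15 ± 13.4 CPM (log2 difference 7.44, SE 0.18, adjusted p = 5.67e-52). After thinning, 148 of 985 microglia (95% exact interval 12.9 to 17.4%) and 0.568% of endothelial cells had a Kcnk13 UMI, against 28.7% and 1.70% before. Kcnk6 (TWIK-2) was at 30.02 to 62.6 CPM in microglia and at 9.01 ± 10.3 CPM in endothelial cells. Kcnk1 (TWIK-1; chr8:125995170-126030685, + strand) was highest in Muller glia at 90.0 to 104 CPM, above astrocytes at 30.8 ± 17.8 CPM, and differed little between libraries (log2 difference 2.93, SE 0.09, adjusted p = 4.02e-47). Kcnk3 (TASK-1) was at 72.3 to 83.6 CPM in BC, above cones at 22.8 ± 5.50 CPM. Kcnk2 (TREK-1) was at 34.6 to 40.6 CPM in AC, and Kcnk10 (TREK-2) at 47.6 to 63.3 CPM in RGC.

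Of the Kcne beta subunits only Kcne2 passed the filter, and the other 4 summed to 4 to 111 UMIs each. Kcne2 was highest in cones, at 58.1 to 170 CPM with a median of 150 CPM, and next in BC at 16.1 ± 2.77 CPM (log2 difference for cones 5.77, SE 0.14, adjusted p = 2.91e-53). The lowest cone values were those of IL-27 replicates 5 and 10 (58.1 and 108 CPM), and the other 4 libraries lay between 147 and 170 CPM. Kcnq1ot1, the noncoding RNA transcribed antisense within Kcnq1, was present in every type, from 125 ± 32.7 CPM in microglia to 457 ± 25.4 CPM in RGC. The sources used here do not state whether counting used strand, so reads of Kcnq1 and Kcnq1ot1 cannot be told apart with certainty. For 10 of the 23 named subunits at least 1 type had no UMI, and their fitted log2 differences then depend on the small count that the model adds.

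Subclasses were compared in a further fit, with rods against cones and with AC and BC divided by marker genes. Of 8145 AC nuclei 569 were starburst, 2182 GABAergic and 2754 glycinergic. Of 7961 BC nuclei 2761 were rod BC, 2970 ON and 1351 OFF cone BC. The remaining AC and BC nuclei fell in no subclass and entered none of these contrasts. The markers placed starburst AC (6 of 6 highest in their subclass), glycinergic AC (5 of 5), GABAergic AC (2 of 3) and rod BC (6 of 6), whereas only 1 of 6 markers of ON cone BC and 3 of 6 of OFF cone BC were highest there. Isl1, Grm6, Trpm1, Gpr179 and Rgs11, listed for ON cone BC, were higher in another BC subclass. The ON list summed to 8835 CPM in rod BC, whose own list also holds Grm6 and Trpm1, against 2840 to 3160 CPM in ON cone BC. Its levels in ON against OFF cone BC were not compared, and the ON and OFF names rest on few markers. Again 50 members were tested. Between rods and cones 6 members were higher in rods (7.46% of all 14456 genes tested) and 8 in cones (8.38%). Higher in rods were Kcnj14 (log2 difference 3.33, SE 0.22), Kcnv2 (1.27, SE 0.12), Kcnk1 (1.16, SE 0.24), Kcna6, Kcna4 and Kcnj12. Among those higher in cones were Kcne2 at 133 ± 42.2 CPM against 7.26 ± 2.57 CPM in rods (log2 difference -4.21 for rods minus cones, SE 0.14, adjusted p = 1.33e-41), Kcnh6 (-3.03, SE 0.14), Kcng1 (-5.39, SE 0.32), Kcnj3, Kcnk3, Kcnn2 and Kcnt2.

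Starburst AC release acetylcholine and compute the direction of motion. Against the mean of the other AC subclasses, 7 members were higher in starburst AC (6.79% of all genes) and 20 lower (12.8%). The median log2 difference of the members was -0.59, that of all genes -0.05. Kcnk2 stood at 347 to 436 CPM in starburst AC and at 3.13 ± 1.46 CPM in GABAergic and 4.72 ± 1.04 CPM in glycinergic AC, a log2 difference of 6.77 (SE 0.11, adjusted p = 1.72e-63). Starburst AC made up 569 of the 8145 AC nuclei in the sums of the map. Kcnb2 was at 3470 ± 233 CPM in starburst AC against 253 ± 21.5 and 673 ± 87.6 CPM (log2 difference 3.16, SE 0.05). Kcnc2 was at 1082 ± 192 CPM in starburst and 1022 ± 63.6 CPM in GABAergic AC but at 186 ± 18.5 CPM in glycinergic AC. Lower in starburst AC were Kcnj3, at 0 to 16.3 CPM against 262 ± 30.1 and 281 ± 40.1 CPM (-5.75, SE 0.18), Kcnh7 at 36.3 ± 15.7 CPM against 736 and 2561 CPM (-5.13, SE 0.11), and Kcnd3 at 9.88 ± 5.24 CPM against 472 and 138 CPM (-4.58, SE 0.17).

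Rod BC carry rod signals, and cone BC carry cone signals in ON and OFF pathways. Against the mean of the cone BC subclasses, 5 members were higher in rod BC (4.66% of all genes) and 17 lower (11.2%). Kcnh5 was at 2297 to 2684 CPM in rod BC, 282 ± 48.4 CPM in ON and 120 ± 21.5 CPM in OFF cone BC (log2 difference 3.81, SE 0.06, adjusted p = 1.25e-66). Kcnt2 was at 247 ± 21.3 CPM in rod BC and at 7.98 and 5.37 CPM in the cone BC subclasses (5.25, SE 0.10). Kcne2 was at 42.8 ± 7.04 CPM in rod BC against 1.449 and 2.28 CPM (4.50, SE 0.20). Lower in rod BC were Kcnb2 (146 ± 15.6 CPM against 3437 and 1070 CPM, -3.66, SE 0.06), Kcnd3 (19.2 ± 3.18 CPM against 180 and 630 CPM, -4.08, SE 0.10) and Kcnd2 (6.40 ± 1.62 CPM against 390 and 173 CPM, -5.29, SE 0.17). Kcnd1, the third Kv4 gene, was instead called higher in rod BC.

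Between ON and OFF cone BC, 9 members were higher in ON (4.71% of all genes) and 10 in OFF cone BC (5.26%). Kcnh8 showed the widest gap, at 130 to 235 CPM in OFF and 1.23 to 6.23 CPM in ON cone BC (log2 difference ON minus OFF -5.70, SE 0.17, adjusted p = 1.19e-44). Kcnd3 (630 ± 103 against 180 ± 18.3 CPM, -1.87, SE 0.08) and Kcnc2 (149 ± 25.9 against 20.9 ± 6.99 CPM, -2.90, SE 0.14) were also higher in OFF. Kcnb2 was higher in ON cone BC, at 3437 ± 183 against 1070 ± 113 CPM (1.62, SE 0.06). Kcnh5 (1.15, SE 0.08) and Kcnh7 (1.59, SE 0.14) were also called higher in ON, but with no doublet removal the difference was 0.76 for Kcnh5 and -0.06 for Kcnh7, with an adjusted p of 0.839 for the latter.

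**Figure D3:**
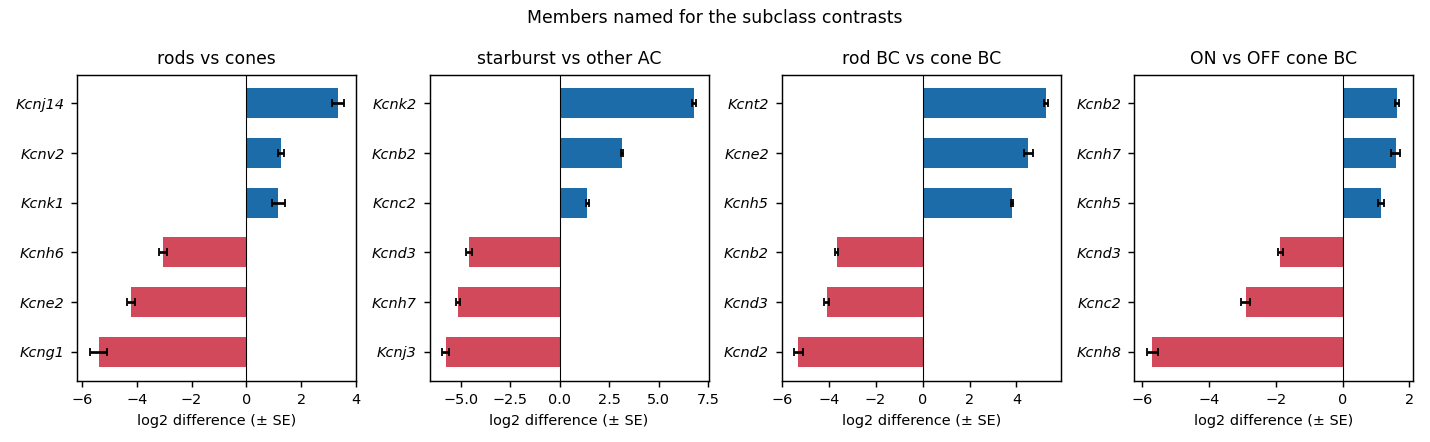
Log2 difference ± SE (horizontal bars) of the named members in 4 subclass contrasts (panels), from edgeR over 6 libraries. Bars to the right mark members higher in the first subclass of the contrast. Kcnk2 in starburst AC reaches 6.77, and Kcnh8 lies at -5.70 in ON against OFF cone BC.

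The next comparison asked whether IL-27 changed the members within a cell type, with 3 libraries per group (edgeR). Labels name separate samples but not the animals, so the p-values measure the spread between these libraries. Counted over 11 types, 251 tests of members passed the filter, from 53 in AC, 47 in RGC, 43 in BC, 31 in rods, 29 in Muller glia, 20 in cones and 17 in HC to 5 in astrocytes, 3 in microglia, 2 in pericytes and 1 in endothelial cells. None of the 251 had an adjusted p under 0.05 (0.0111% of 98964 tests of all genes did, 11 in number), and 13 had an unadjusted p under 0.05, against 4.44% of all tests. DESeq2 called 4 members, all in Muller glia, where it called 0.863% of the 13560 genes tested (0.124% over the 11 types). The members' median log2 difference (IL-27 minus saline) was within 0.07 of 0 in rods, cones, BC, AC, HC, RGC and Muller glia, from -0.07 in HC to 0.03 in AC and RGC, where all genes had medians between -0.00272 and 0.00679. In rods 22 of 31, in BC 32 of 43, in AC 48 of 53 and in RGC 36 of 47 members lay within 0.25 of 0.

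For Kcnv2 no difference between the groups was detected. Kcnv2 in rods was at 110, 104 and 114 CPM with saline and at 110, 110 and 92.7 CPM with IL-27, a log2 difference of -0.06 (SE 0.12). The groups overlapped. Kcnk13 in microglia was at 180, 245 and 222 CPM with saline and at 234, 191 and 259 CPM with IL-27 (0.07, SE 0.20). Kcnj8 in pericytes was at 384, 294 and 341 CPM with saline and at 198, 195 and 219 CPM with IL-27, so that the groups did not overlap, but with 54 UMIs the difference of -0.66 had an SE of 0.50 (unadjusted p = 0.189, edgeR).

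Of the members with an unadjusted p under 0.05 and groups that did not overlap, 3 in photoreceptors or BC and 1 in RGC are given. Kcnq1ot1 in rods was at 159, 162 and 167 CPM with saline and at 196, 208 and 197 CPM with IL-27 (0.31, SE 0.10, unadjusted p = 0.00749, adjusted p = 0.9999). Kcnd1 in cones was at 11.4, 16.1 and 16.5 CPM with saline and at 11.1, 4.61 and 6.35 CPM with IL-27 (-0.90, SE 0.39). Kcne2 in BC was at 20.3, 18.1 and 16.5 CPM with saline and at 14.3, 13.1 and 14.03 CPM with IL-27 (-0.39, SE 0.14). In RGC Kcnj3 was at 161, 172 and 177 CPM with saline and at 151, 147 and 111 CPM with IL-27 (-0.28, SE 0.11). The adjusted p of each of these was 0.998 or above. Others with an unadjusted p under 0.05 and groups that overlapped were Kcnd2 in RGC (0.31, SE 0.10) and Kcnq1ot1 in astrocytes (0.65, SE 0.27).

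**Figure D4:**
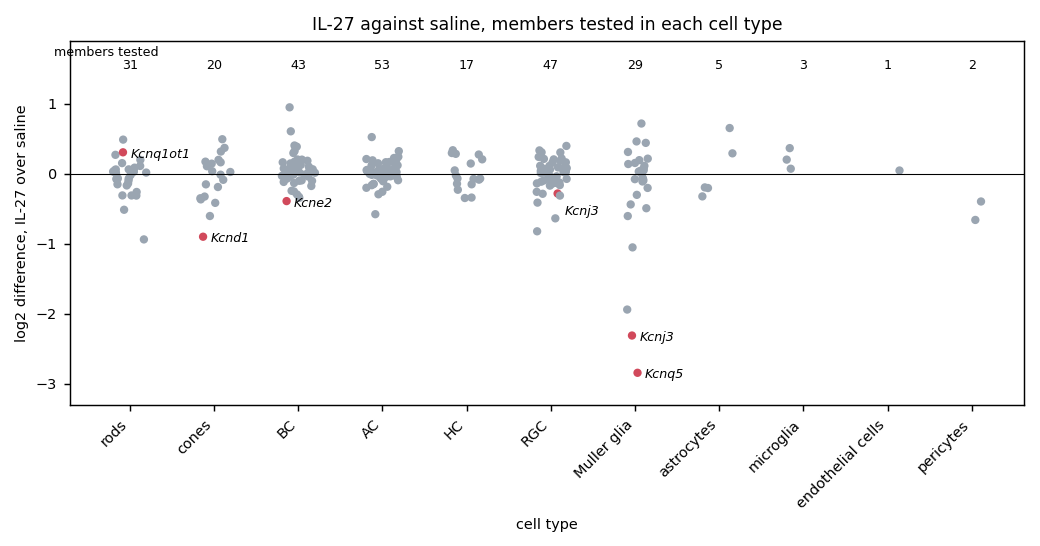
Log2 difference, IL-27 minus saline (vertical axis), of every tested member in each cell type (1 point per member, number tested on top), with the members labelled by name in red. Most points lie within 0.25 of 0, and Kcnq5 and Kcnj3 in Muller glia stand lowest at -2.84 and -2.31.

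In Muller glia 4 of 29 members had an unadjusted p under 0.05, beside 9.87% of all genes tested there. Kcnq5 was at 19.1, 21.3 and 12.5 CPM with saline and at 1.02, 1.23 and 5.29 CPM with IL-27, a log2 difference of -2.84 (SE 0.45, unadjusted p = 8.60e-05, adjusted p = 0.0869). Kcnj3 was at 83.2, 102 and 53.7 CPM with saline and at 11.3, 8.63 and 28.7 CPM with IL-27 (-2.31, SE 0.37, adjusted p = 0.0869). Kcnh5 was at 37.5, 41.0 and 35.3 CPM against 22.2, 18.5 and 12.8 CPM (-1.05, SE 0.19, adjusted p = 0.0913), and Kcnh1 at 22.3, 21.3 and 9.68 CPM against 3.07, 2.77 and 8.31 CPM (-1.94, SE 0.42, adjusted p = 0.151). For all 4 genes, taken by their unadjusted p, every saline library lay above every IL-27 library, a separation not counted over all genes. They were the 4 called by DESeq2, with adjusted p-values from 3.63e-06 for Kcnq5 to 0.00672 for Kcnj3, and without IL-27 replicate 10 edgeR also called them (Kcnq5 -3.88, adjusted p = 0.000606), together with 3.03% of all genes tested there (0.412% over the 11 types). With no filter on low counts it called them as well, beside 1.76% of all genes in Muller glia, and Kcnd2 in RGC (0.244% over the 11 types). Kcnk1, the member highest in Muller glia, was at 96.5, 93.8 and 98.3 CPM with saline and at 104, 90.0 and 96.7 CPM with IL-27 (0.04, SE 0.10).

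A Muller cluster marked by Fbln1, Frmpd4, Reln and Csmd3, genes that the study had taken from these same libraries, differed in size between the libraries. It held 18.2, 21.9 and 10.4% of the Muller nuclei of saline replicates 1, 2 and 6 and 1.05, 0.143 and 10.9% of those of IL-27 replicates 4, 5 and 10. Among the IL-27 libraries replicate 10 was highest for Kcnq5, Kcnj3 and Kcnh1 and lowest for Kcnh5. Saline replicate 6 and IL-27 replicate 10 had like cluster shares, with Kcnj3 at 53.7 against 28.7 CPM. The saline libraries all lay above the IL-27 libraries for these 4 genes, so the order of this pair was already given. It rests on a single library of each group, and the part of cluster size in it was not tested. Within the 3 saline libraries 22 members could be compared between this cluster and the other Muller nuclei. Of these, 10 were higher in the cluster (20.5% of all 12354 genes) and 4 lower (20.4%). Kcnj3 was at 455, 464 and 464 CPM in the cluster and at 13.9, 9.14 and 11.7 CPM in the other Muller nuclei (log2 difference 5.24, SE 0.15, adjusted p = 2.27e-23). Kcnq5 was at 119, 102 and 131 CPM against 0.58, 0.68 and 0.34 CPM, Kcnh1 at 114, 92.5 and 63.9 CPM against 5.23, 3.05 and 4.13 CPM, and Kcnh5 at 115, 103 and 101 CPM against 22.9, 25.1 and 28.6 CPM. In IL-27 replicate 10, where 64 nuclei fell into the cluster, it had 242 CPM of Kcnj3, 52.5 CPM of Kcnq5, 40.4 CPM of Kcnh1 and 48.5 CPM of Kcnh5. Kcng3 was counted in the cluster and had no UMI in the other Muller nuclei of any library. Kcnk1 did not pass (0.14, SE 0.15, adjusted p = 0.509).

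Without the cluster the IL-27 differences of the Muller sums were -0.42 (SE 0.25) for Kcnj3, -0.23 (SE 0.38) for Kcnh1 and -0.58 (SE 0.25) for Kcnh5, with adjusted p-values of 0.952 to 0.993, and Kcnq5 fell below the filter. The lists of other cell types differed in the cluster too. In the saline libraries the 9 Muller markers summed to 3342 to 4501 CPM in the cluster and 6389 to 7340 CPM in the other Muller nuclei. The AC markers summed to 1076 to 1188 against 709 to 837 CPM, with 3 of 9 higher in all 3 libraries, the BC markers to 982 to 1050 against 637 to 716 CPM, and the HC markers to 151 to 268 against 41.3 to 51.7 CPM, with 2 of 6 higher in all 3. The 10 RGC markers summed to 239 to 262 against 92.3 to 104 CPM, with 2 higher in all 3 libraries, while Pou4f2, Pou4f3 and Isl2 were at 0 in the cluster. The endothelial list was lower in the cluster (161 to 272 against 1901 to 2023 CPM), as were the astrocyte list (29.1 to 50.5 against 145 to 152 CPM, Pax2 at 0) and the pericyte list (48.3 to 60.6 against 93.8 to 109 CPM, Abcc9 at 0). The rod, cone and microglial lists overlapped between the cluster and the other Muller nuclei. Not every list is specific. Muller glia had the next highest sum of the endothelial list (1819 CPM), whose gene Kdr was not highest in endothelial cells. Pax6 and Tfap2b of the AC list were not highest in AC. The part of RNA of these cell types in the cluster's members was not tested.

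**Figure D5:**
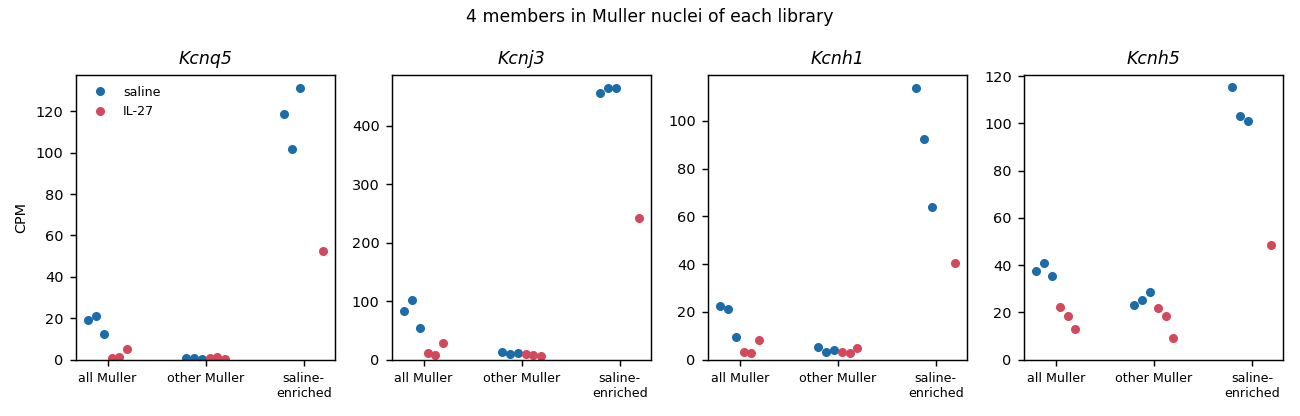
CPM of Kcnq5, Kcnj3, Kcnh1 and Kcnh5 (panels) per library in all Muller nuclei, in those outside the saline-enriched cluster and in the cluster, with cluster sums of fewer than 50 nuclei not shown. Outside the cluster Kcnj3 lies between 9.14 and 13.9 CPM with saline and between 6.67 and 10.3 CPM with IL-27, and in the cluster it stands at 455 to 464 CPM in the saline libraries.

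A list of 34 other genes of potassium handling (auxiliary Kv subunits, the BK channel and its subunits, HCN channels, the sodium pump and cation chloride cotransporters) was counted beside the members. Of 29 that passed the filter of the map, 18 were called higher in AC (21.0% of all genes tested) and 17 in RGC (21.8%). BC had 16 (17.5%) and HC 9 (14.0%). Rods, cones and astrocytes had 8 each (17.8, 15.9 and 14.2%), and Muller glia had 6 (19.9%). Endothelial cells and pericytes had 4 each (11.5 and 7.31%), and microglia had 2 (19.5%). Between IL-27 and saline, 0 of 197 tests of this list had an adjusted p under 0.05 and 16 an unadjusted p under 0.05 (edgeR). Over all genes 0.0111 and 4.44% of the tests did.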

How the data were processed

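Single-nucleus RNA (10x Genomics 3' libraries of isolated nuclei) was read from 6 samples of retina. The deposited values are UMI counts per gene and barcode. The submitters' notes name Cell Ranger 9.0.1 and Seurat 5.2.1, whereas the header of the deposited matrices names Cell Ranger 8.0.1. The build is not given in the sources used here. Positions came from GENCODE M21 (GRCm38), which holds 79 of 79 members.

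Barcodes passed (56205 of 56634) when their UMIs exceeded 500, their genes reached 200 and mitochondrial counts stayed below 5%, and 4019 doublets found by Scrublet (scanpy 1.11.5, expected rate 8%) were removed. Louvain clustering (resolution 0.25, 25 components, without genes beginning with Kcn) gave types named from marker lists, 3890 nuclei with markers of several types and 1304 unnamed nuclei being set aside. The sums per library and type left out nuclei whose log2 total lay further than 2 median absolute deviations from the median. The authors' own annotation was not used, so shares may differ through rebuilt names. Sums were tested with edgeR 4.0.16 (quasi-likelihood, TMM, filterByExpr at 10 counts, Benjamini-Hochberg over all genes), and library was a covariate in the map, the subclass contrasts and the Muller cluster. SE is the log2 difference divided by the square root of F. The tests were tried on simulated counts. For IL-27 against saline 200 genes were changed by a log2 of 1 in each type. The share recovered ran from 35% in astrocytes to 81% in AC, with 63% in Muller glia and 50.5% in microglia. DESeq2 1.42.0, other scalings, filters, clusterings and left-out libraries were alternatives. Free RNA was not subtracted, and intervals cover counting error only.

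Named were, per cell type, up to 3 members with the largest log2 difference among those called and highest there in all 6 libraries, plus Kcnv2, Kcnk13, Kcnj8 and Kcnq1ot1; per subclass contrast and direction, up to 3 with the smallest adjusted p; and for IL-27, up to 2 per type and direction with unadjusted p under 0.05 and groups that did not overlap. Other genes were named after their values were seen. Results for some genes are not reported here, although the counts include them. The members and lists were chosen with earlier results of these data known.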

Additional observations from a re-analysis of the deposited data

How the results depend on the processing

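No paired analysis was possible because the saline and IL-27 libraries share no replicate number. Under the alternatives the 23 named members of the map kept their direction and call in all 298 recomputed values. The 8 named IL-27 differences kept their direction in all 133. Named members, also those of the subclass contrasts, were picked from these same libraries for large, small-p or non-overlapping differences. Much of this agreement was therefore set by the choice. The count of members called between IL-27 and saline was 0 in the main fit of edgeR, 4 with DESeq2, 5 with no filter on low counts (Kcnq5, Kcnj3, Kcnh1 and Kcnh5 in Muller glia, and Kcnd2 in RGC), and 0 to 4 with 1 library left out, the 4 without IL-27 replicate 10. Members called higher in the main fit were also checked by the share of nuclei with a UMI after thinning to 1000 UMIs. Those above the mean of the other types in all 6 libraries were 4 in rods, 13 in BC and 5 in HC. They were 2 in astrocytes, 1 in endothelial cells and 2 in pericytes. Members not called in the main fit were left out, so these numbers could only fall. With no filter the members called higher were 7 in Muller glia and 7 in microglia. With all retained nuclei summed they were 5 in microglia and 7 in endothelial cells, with under 1% mitochondrial counts 5 in microglia, and with no doublet removal 5 in endothelial cells. With 1 library left out the microglial count was 3 to 5 (5 when either saline replicate 6 or IL-27 replicate 10 was omitted), and the count higher in rod BC was 3 to 5 (3 without saline replicate 2). Of 312 recomputed subclass differences 307 kept direction and call. In ON against OFF cone BC, Kcnh7 turned from 1.59 to -0.06285 with no doublet removal and fell to 0.83 with all retained nuclei, Kcnh5 fell to 0.76 and 0.99, and in rods against cones Kcnk1 was 0.99 without saline replicate 1. The cause was not tested. Leaving out microglia with many neuronal counts removed 0 nuclei. Pericytes (10 to 19 nuclei per library) and endothelial cells limit what could be detected, with 2 and 1 members tested for IL-27.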

Other observations

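A cluster of 784 nuclei that no marker list named (leading genes Dnah11, Gm12128, Gm20063, Lrfn5, Gm32122, Ppp1r17, Ebf3 and Lgr5) held the highest levels of several members outside the named types. Kcnd3 (Kv4.3) was at 1790 ± 228 CPM over the 6 libraries, from 1598 to 2096 CPM, which was 4.78 times its level in astrocytes, the leading named type. Kcnj6 was at 727 CPM, 2.22 times its level in AC, and Kcnj5, another Kir3 subunit, was at 78.5 CPM, 3.60 times its level in RGC. Kcna6 was at 101 ± 13.3 CPM and Kcnb2 at 2124 ± 142 CPM, 1.93 and 1.34 times their leading named types. The saline and IL-27 means of Kcnd3 were 1811 and 1770 CPM.

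In a further unnamed cluster of 264 nuclei (leading genes Htr2c, Hmcn1, Gm20631, Gpc5, Tafa1, Col25a1, Slc39a12 and Tac1), Kcns3, a silent modifier, was at 53.5 CPM, 3.02 times its level in astrocytes, and Kcnh8 was at 302 CPM, 1.59 times its level in RGC. The astrocyte level of Kcns3 (17.7 ± 12.9 CPM) rests on 16 UMIs. The unnamed clusters were summed over all their retained nuclei, without the limit on totals used for the named types. These clusters entered no test.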
